A study of Arabidopsis thaliana with 36 samples.

Results

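Messenger RNA was sequenced from roots and shoots of Arabidopsis thaliana wild type (Col-0, the reference accession) that had been kept for 72 h in 20 µM cadmium chloride, and the root libraries were compared with the shoot libraries. The members are the 18 deposited columns of Col-0 roots and Col-0 shoots, out of 36 in the series, taken by genotype and tissue label. The 3 technical columns of each biological replicate were summed, which gave 3 root and 3 shoot libraries, out of 12 in all. The other 6 libraries come from opt3-2, a mutant of the phloem iron transporter OPT3, treated in the same way. They entered the filter on low counts, the scaling of the libraries, the shared estimate of spread and a comparison by genotype at the end. OPT3 itself had 21.7 ± 3.59 CPM in opt3-2 shoots and 5.90 ± 2.71 CPM in opt3-2 roots (SD, n = 3), against 354 ± 33.8 and 42.6 ± 4.87 CPM in wild type.

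Every plant, wild type or mutant, received cadmium, and no untreated plants were analysed here, so no value below measures the effect of cadmium itself. Per the labels' protocols, seedlings grew for 11 d on plates and for 22 d in aerated minimal hydroponic medium under days of 16 h light, and 3 to 4 plants were ground for an RNA preparation. The shoot libraries are labelled as leaf tissue in their source field. The labels number the biological replicates, and p-values describe only the spread between these numbered pools.

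Cadmium is a toxic metal with no known function in this plant, and it enters through carriers for iron, zinc and other divalent metals. In roots, metals are taken up at the epidermis, chelated, stored in vacuoles or loaded into the xylem, and in leaves they are unloaded, delivered to chloroplasts or moved on in the phloem. Phytochelatins, made from glutathione, bind cadmium, which ties its handling to sulfur supply.

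Library totals ran from 27229534 to 33221855 counts in shoots and from 35523985 to 36484138 counts in roots. The 10 most counted genes took 6.27% to 7.31% of the counts in shoots and 3.09% to 3.18% in roots. Levels are given as CPM, counts scaled to a library size of 1e6, after trimmed-mean (TMM) scaling, and since CPM is not divided by gene length, levels are compared between tissues and not between genes. Changes are root minus shoot, as log2 fold changes with their standard error (SE) from edgeR's quasi-likelihood test, and adjusted p is the Benjamini-Hochberg value over 21887 genes tested.

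The dissection was read first from tissue markers. All 12 leaf markers were higher in shoots and 14 of 15 root markers were higher in roots. RCA, the activase of the carbon-fixing enzyme Rubisco, stood at 10779, 13012 and 10068 CPM in the 3 shoot libraries and at 32.8, 37.3 and 49.9 CPM in the 3 root libraries. PYK10, a beta-glucosidase of root endoplasmic reticulum bodies, stood at 75.7, 74.9 and 85.1 CPM in shoots and at 3303, 2990.3 and 3086 CPM in roots. The 12 leaf markers summed to 27283 to 33057 CPM in shoots and to 89.6 to 138 CPM in roots. The 15 root markers summed to 125 to 135 CPM in shoots and to 3196 to 3535 CPM in roots, and the root hair regulators RHD6 and RSL4 had 0 counts in all 3 shoot libraries. The one root marker not called was SCR, a regulator of ground tissue that leaves also use (32.2 ± 0.167 CPM in shoots, 32.5 ± 2.79 CPM in roots, SD, n = 3 each). In such bulk tissue, fewer cells of a type and less RNA per cell cannot be told apart.

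Roots and shoots differed in most of the transcriptome. At an adjusted p below 0.05, 8636 genes (39.5% of those tested) were higher in roots and 8444 (38.6%) were higher in shoots, and with a fitted change of at least 4-fold the counts were 3288 (15%) and 3011 (13.8%). The root and shoot libraries did not overlap for 17861 genes (81.6%). These shares are the background against which every list and every statement of no overlap below is read. The difference itself was unlike between wild type and opt3-2, at an adjusted p below 0.05, for 10542 genes (48.2%). Of genes tested for it by name, 10 of 12 passed and are given at the end. Of all calls, 50.6% were higher in roots, against 67.6% when libraries were scaled by their totals alone and 60.0% when scaled on 6 reference genes, which moved the median of all genes by 0.35 and 0.17 on the log2 scale. A gene near equality can therefore change sides with the scaling, whereas a 4-fold change is 2 on that scale.

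Among genes with at least 50 CPM in the higher tissue, the 6 largest changes toward roots were MEE39, GLR2.2, BGLU34 and 3 genes without a symbol, AT1G07560, AT5G26130 and AT4G33720. MEE39, annotated as a leucine-rich repeat protein kinase, had 0.165, 0.0341 and 0.198 CPM in shoots and 179, 183 and 209 CPM in roots, a change of 10.46 (SE 0.22, adjusted p = 6.57e-13). AT4G33720 had 3.55, 2.83 and 6.63 CPM in shoots and 4162, 4324 and 4201 CPM in roots. Shoot counts of such genes are few, and leaving out 1 shoot library moved GLR2.2 from 10.26 to 11.01 (replicate 1), BGLU34 from 9.97 to 11.16 and AT5G26130 from 9.95 to 10.87 (replicate 3). The 6 largest changes toward shoots were those of the defensin genes PDF1.3, PDF1.2A and PDF1.2c, of MBP1, a myrosinase-binding protein, and of AT1G76960 and AT1G80130. MBP1 stood at 428, 324 and 432 CPM in shoots and 0.314, 0.258 and 0.477 CPM in roots, a change of -10.13 (SE 0.38, adjusted p = 5.29e-10). Genes chosen by their share of the shoot counts, which also grows with gene length, were CAB1, RCA, LHB1B2, LHCA4, RBCS1A and CAT3, and all but the catalase CAT3 belong to photosynthesis. The genes CAB1, LHB1B2, RBCS1A and MBP1 have closely similar copies, so their single values are uncertain.

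Each of the 11 metal and nutrient lists held genes higher in roots and genes higher in shoots. Of 161 metal and nutrient genes tested in 11 lists, 84 were higher in roots, 58 were higher in shoots and 19 were not called, and 53 and 28 of them reached 4-fold.

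**Figure D1:**
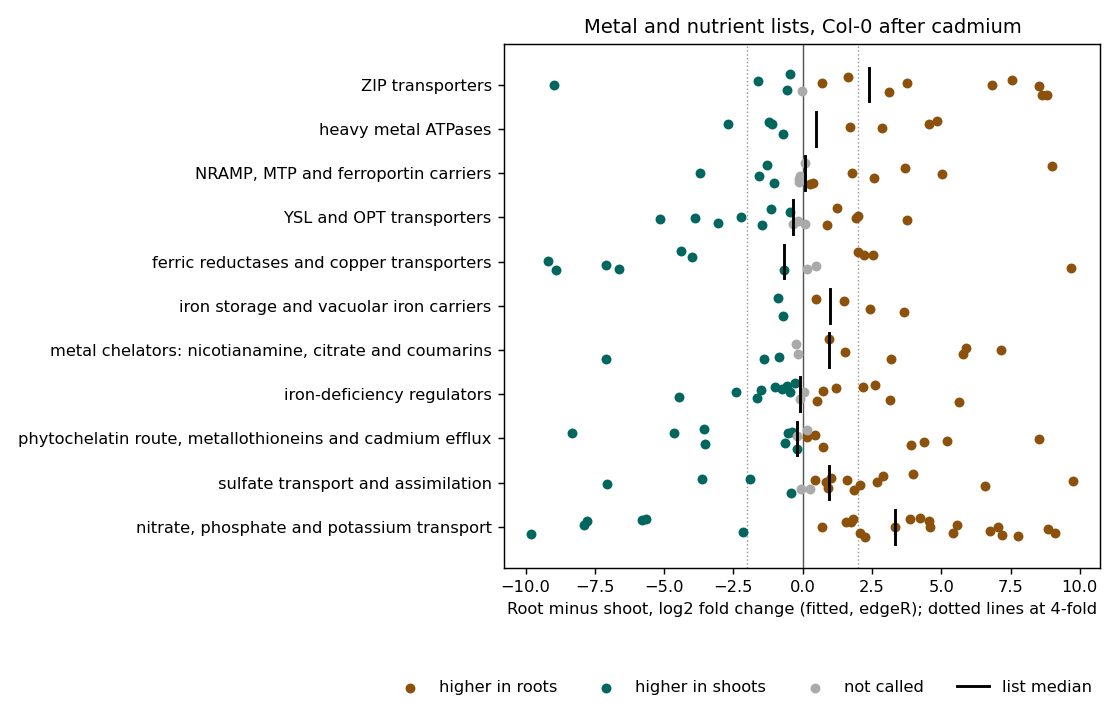
Fitted root minus shoot log2 fold changes of the tested members of the 11 metal and nutrient lists, 1 point a gene, coloured by call at an adjusted p of 0.05, with the list median as a black bar and dotted lines at 4-fold. Every list holds genes on both sides, and the nitrate, phosphate and potassium list has the highest median, 3.34, with MYB72, at 0 counts, left out.

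The ZIP family, which carries zinc, iron and often cadmium into cells, leaned to roots. Of 14 members tested, 9 were higher in roots, 4 in shoots and 1 was not called, 7 and 1 of them at 4-fold or more. With the 6 wild type libraries alone 13 members passed the filter, and 8 were higher in roots, 6 of them at 4-fold or more. ZIP8, among those called higher in roots, was near the floor, at 0.138 CPM in roots and 0.0138 CPM in shoots in mean. IRT1 (chromosome 4, bases 10707344 to 10709015 in TAIR10.1), the main iron uptake carrier of roots and a known cadmium entry route, had 0.537, 0.818 and 0.924 CPM in shoots and 100.5, 83.1 and 83.1 CPM in roots, a 117-fold difference in mean (6.84 on the log2 scale, SE 0.22, adjusted p = 3.62e-11). ZIP2 (chromosome 5, bases 23991213 to 23992908 in TAIR10.1), a zinc and manganese carrier of the root stele, had 0.207, 0.205 and 0.495 CPM in shoots and 121, 126 and 129.6 CPM in roots (8.65 on the log2 scale, SE 0.20, adjusted p = 1.07e-12). In both genes every root library stood far above every shoot library. Without shoot replicate 3 the change of ZIP2 was 9.24. ZIP3, a zinc carrier, followed with 0.300 ± 0.0529 CPM in shoots and 56.9 ± 8.73 CPM in roots (SD, n = 3). IRT2, the neighbour and near relative of IRT1, had 7.31 ± 2.54 CPM in roots and 1 count in all in shoots. These genes were nearly silent in shoots. ZIP10 had 0 counts in shoots and 2.51, 1.22 and 0.980 CPM in roots, at least 44.0-fold higher against a floor of 3 counts over the group. ZIP7 was the opposite case, at 6.32, 6.34 and 5.84 CPM in shoots and 0, 0 and 0.0251 CPM in roots. IRT3 was level between tissues, at 58.5, 58.8 and 58.0 CPM in shoots and 62.0, 58.4 and 53.2 CPM in roots, and its log2 difference of -0.014 (SE 0.095) was not called.

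Several ZIP genes answer to zinc shortage through bZIP19 and bZIP23, factors that bind the zinc deficiency response element. Its core was searched as TGTCGACA, a palindrome that reads alike on both strands, in the 300 bases before the annotated start of each gene (RefSeq, TAIR10.1). It was found in 4 of 14 ZIP windows (28.6%), in IRT3, ZIP4, ZIP10 and ZIP12, and in 89 of 27443 windows of all protein-coding genes (0.32%). Windows from 2 genes of unlike tissue pattern are shown with the core in capitals, IRT3 (level between tissues, chr1:22447300-22447599, minus strand) and ZIP10 (counted in roots alone, chr1:11177363-11177662, minus strand).
IRT3: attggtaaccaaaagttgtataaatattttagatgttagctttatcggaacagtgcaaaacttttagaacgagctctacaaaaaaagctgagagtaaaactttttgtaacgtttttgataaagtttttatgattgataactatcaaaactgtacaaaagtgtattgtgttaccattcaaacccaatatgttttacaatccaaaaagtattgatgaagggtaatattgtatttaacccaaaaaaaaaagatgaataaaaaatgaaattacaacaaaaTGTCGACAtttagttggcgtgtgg
ZIP10: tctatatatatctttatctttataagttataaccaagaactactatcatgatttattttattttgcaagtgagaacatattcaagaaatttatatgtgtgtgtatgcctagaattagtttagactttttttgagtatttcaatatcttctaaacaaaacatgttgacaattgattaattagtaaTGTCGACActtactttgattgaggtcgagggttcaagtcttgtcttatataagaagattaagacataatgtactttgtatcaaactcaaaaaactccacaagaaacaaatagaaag
The first base of the core lies 24 bases before the start of IRT3 and 116 bases before that of ZIP10. ZIP4, which also has the core, was slightly higher in shoots (26.0 ± 1.35 against 19.1 ± 1.81 CPM, adjusted p = 0.000481), and ZIP12 was too low to test. The windows of IRT1 and ZIP2 do not hold these letters. ZIP genes with the core were thus found higher in roots, higher in shoots and not called.

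The heavy metal ATPases, pumps that move zinc, cadmium or copper across membranes, were divided 4 to 4, all 8 being called. HMA4, which loads zinc and cadmium into the root xylem, had 33.7, 47.1 and 37.5 CPM in shoots and 255, 295 and 311 CPM in roots (2.86, SE 0.12, adjusted p = 1.93e-10). HMA5, a copper pump of roots, had 4.75, 3.41 and 3.96 CPM in shoots and 115, 114 and 115 CPM in roots (4.83, SE 0.12, adjusted p = 1.34e-12). The groups did not overlap in either gene, with roots above shoots. HMA3, a vacuolar zinc and cadmium pump whose Col-0 allele is known to be non-functional, and RAN1, which supplies copper to ethylene receptors, were the other members higher in roots (4.57 and 1.7). HMA2, the close relative of HMA4, was higher in shoots, at 52.8, 68.7 and 57.6 CPM against 34.2, 25.1 and 24.2 CPM in roots (-1.10, SE 0.15). The chloroplast pumps PAA1, PAA2 and HMA1 were higher in shoots too, PAA2 most, at 107 ± 3.86 against 16.4 ± 0.824 CPM.

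Among 15 NRAMP, MTP and ferroportin carriers tested, 7 were higher in roots, 4 in shoots and 4 were not called. IREG2, which moves nickel, cobalt and iron into root vacuoles, had 0.0826, 0.102 and 0.231 CPM in shoots and 76.3, 72.9 and 73.5 CPM in roots (8.98, SE 0.23, adjusted p = 3.19e-12; 9.58 without shoot replicate 3). MTP3, a vacuolar zinc carrier, had 1.64 ± 0.381 and 54.1 ± 0.639 CPM, and NRAMP1, a manganese and iron uptake carrier, 55.2 ± 8.59 and 191 ± 11.3 CPM. NRAMP6, an intracellular carrier linked to cadmium, ran the other way, at 12.7, 15.3 and 16.0 CPM in shoots and 1.47, 0.987 and 0.929 CPM in roots. IREG1, a ferroportin of the stele, differed by 0.09 (SE 0.12) and was not called.

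Carriers of metal complexes were divided. Of 15 YSL and OPT genes tested, 7 were higher in shoots, 5 in roots and 3 were not called, 4 and 1 at 4-fold or more, while scaling by library totals alone gave 6 in shoots and 7 in roots. OPT3 (chromosome 4, bases 9247302 to 9250343 in TAIR10.1), which loads iron into phloem companion cells, had 389, 321 and 352 CPM in shoots and 38.4, 47.9 and 41.4 CPM in roots (-3.06, SE 0.23, adjusted p = 2.67e-07). YSL1, a carrier of metal-nicotianamine complexes, had 27.8, 27 and 29.4 CPM in shoots and 0.844, 0.846 and 0.653 CPM in roots (-5.16, SE 0.12, adjusted p = 9.36e-13). YSL2, of the same family, was higher in roots (33.3 ± 6.22 against 127 ± 4.2 CPM, 1.94). The only member at least 4-fold higher in roots was OPT2, at 5.79, 5.59 and 12.5 CPM, of which the last library is the highest, against 0.578, 0.511 and 0.660 CPM in shoots. Leaving out shoot replicate 1, shoot replicate 3 or root replicate 3 brought that count to 2.

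Ferric reductases stood at both ends of the scale. FRO5, a root reductase linked to copper uptake, had 0.950, 0.648 and 1.85 CPM in shoots and 1056, 868 and 966 CPM in roots (9.69, SE 0.29, adjusted p = 3e-11). FRO7 (chromosome 5, bases 20205302 to 20208777 in TAIR10.1), the chloroplast reductase, had 406, 547 and 413 CPM in shoots and 0.748, 0.752 and 0.829 CPM in roots (-9.19, SE 0.18, adjusted p = 3.57e-13). FRO6, its neighbour on the chromosome and a reductase of leaf cell membranes, had 1059.9, 1258 and 1068 CPM in shoots and 1.81, 2.11 and 3.24 CPM in roots. FRO2, the root iron reductase that works with IRT1, was higher in roots by 2.22 (SE 0.24), with 35.1, 23.7 and 21.5 CPM there and 5.16, 6.92 and 5.15 CPM in shoots. Among the copper transporters, COPT6 and COPT1 were higher in shoots (-7.09 and -4.39) and COPT2 and COPT4 in roots (2.52 and 2.00). Over the list, 7 of 13 genes tested were higher in shoots and 4 in roots, 6 and 3 at 4-fold or more.

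**Figure D2:**
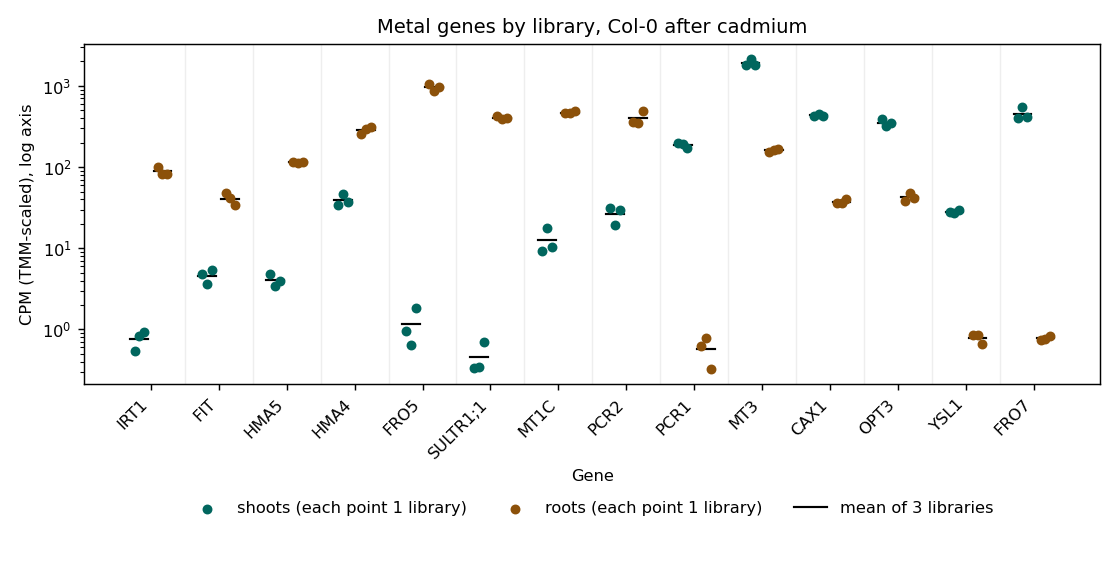
CPM after TMM scaling on a log axis for 14 metal genes, 1 point a library (3 shoot and 3 root libraries), with the mean as a bar. Root and shoot points do not overlap in any of the 14 genes, as in 81.6% of all genes tested. The first gene is IRT1 (117-fold higher in roots in mean) and the last is FRO7 (586-fold higher in shoots).

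Of 6 iron storage and vacuolar iron genes tested, 4 were higher in roots and 2 in shoots. VTL5 and VTL1, vacuolar iron transporter-like genes, changed most (3.65 and 2.41, both higher in roots). The 3 ferritins tested, which store iron in plastids and mitochondria, were divided. FER2 was higher in roots at a low level (0.345 ± 0.0165 against 0.973 ± 0.180 CPM, 1.48), FER3 had 7.15, 6.99 and 6.83 CPM in shoots and 11.5, 9.47 and 8.64 CPM in roots (0.50, adjusted p = 0.00226), and FER4 was higher in shoots (-0.73). FER1 and the metallothioneins MT1A and MT2B are listed at 0 in all 12 libraries of the table, so no level is read from them.

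Of 11 genes for metal chelators, 6 were higher in roots and 3 in shoots. F6'H1, which starts coumarin synthesis, had 4.42, 4.30 and 7.59 CPM in shoots and 312, 314 and 340.2 CPM in roots (5.88, SE 0.18, adjusted p = 2.09e-11). PDR9, which exports coumarins, had 3.93, 3.61 and 4.02 CPM in shoots and 210.3, 213 and 218 CPM in roots (5.79, SE 0.078, adjusted p = 8.31e-14). FRD3, the citrate exporter that keeps iron mobile in the xylem, was 9.26-fold higher in roots. The 4 nicotianamine synthases took 3 patterns. NAS2 was higher in roots (7.37 ± 2.19 against 0.0471 ± 0.0167 CPM), NAS3 in shoots, at 9.30, 17.5 and 8.18 CPM against 0.0241, 0.0940 and 0.126 CPM in roots, as was NAS4 (-0.87), and NAS1 was not called (51.3 ± 15.8 and 45.8 ± 6.49 CPM). ZIF1, which moves nicotianamine into vacuoles, was higher in shoots (-1.40).

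Regulators of the iron deficiency response were divided 7 to 9 between roots and shoots, 3 of 19 tested not being called, and 8 to 6 under scaling by library totals alone. FIT, the root factor that switches on IRT1 and FRO2, had 4.88, 3.58 and 5.38 CPM in shoots and 47.8, 41.3 and 33.8 CPM in roots (3.15, SE 0.19, adjusted p = 1.64e-08). Its bHLH partners were unlike one another: BHLH39 was higher in roots (1.19), BHLH100 and BHLH101 in shoots (-1.51 and -1.65), and BHLH38 was not called (0.05, SE 0.20). BTS, a ubiquitin ligase that restrains the response, was higher in shoots, at 493, 359 and 493 CPM against 83.3, 84.9 and 83.6 CPM in roots. AT1G74770, annotated by RefSeq as a zinc ion binding protein, was the largest root change of the list, at 4.92, 4.36 and 5.64 CPM in shoots and 241, 261 and 253 CPM in roots. AT2G30766, an uncharacterized protein in the annotation, was the largest shoot change, at 37.6, 31.9 and 30.7 CPM in shoots and 1.37, 1.32 and 1.88 CPM in roots. MYB72 had 0 counts in all 6 wild type libraries and is among the 19 tested through its counts in opt3-2.

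Genes that bind or expel cadmium were also divided, with 7 of 17 tested higher in roots, 8 in shoots and 4 in each direction at 4-fold or more (8 and 6 under scaling by library totals alone). Phytochelatin synthase PCS1 was not called, at 101.4, 83.0 and 103 CPM in shoots and 94.7, 100.1 and 121 CPM in roots, and the exporter ABCG36 was not called either (2001 ± 225 and 1754 ± 304 CPM). Glutathione synthesis genes GSH1 and GSH2 were a little higher in shoots (-0.38 and -0.21). Scaling by library totals alone moved the median of all genes by 0.35 toward roots, so no firm direction is read for these 2 genes. By contrast PCR1 (chromosome 1, bases 5132506 to 5133860 in TAIR10.1), a cadmium resistance membrane protein, had 197, 190.0 and 173 CPM in shoots and 0.627, 0.775 and 0.327 CPM in roots (-8.32, SE 0.30, adjusted p = 3.3e-10). Its neighbour PCR2 (chromosome 1, bases 5128344 to 5129731 in TAIR10.1), known for zinc efflux, had 31.2, 19.2 and 29.4 CPM in shoots and 362, 345 and 486 CPM in roots (3.90, SE 0.22, adjusted p = 1.13e-08), so the pair stood in opposite tissues. The 3 metallothioneins tested, small cysteine-rich metal binders, were also divided. MT1A, at 0 counts in all wild type libraries, lies beside MT1C on chromosome 1. Whether the counting told these 2 genes apart was not tested. MT1C had 9.30, 17.83 and 10.5 CPM in shoots and 457, 464 and 486 CPM in roots, whereas MT2A had 483, 495 and 484 CPM in shoots and 21.2, 18.5 and 19.1 CPM in roots. MT3 had 1791, 2119 and 1800.1 CPM in shoots and 154, 162 and 166 CPM in roots. The vacuolar calcium exchangers CAX1 and CAX4, which can also carry cadmium, were 11.5-fold higher in shoots and 391-fold higher in roots in mean.

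Genes of sulfate uptake were higher in roots. SULTR1;1, a high-affinity sulfate uptake carrier, had 0.331, 0.341 and 0.693 CPM in shoots and 422, 395 and 407 CPM in roots (9.77, SE 0.28, adjusted p = 2.16e-11). SULTR1;2, the second uptake carrier, was 95.2-fold higher in roots in mean. SULTR3;1, of the chloroplast envelope, was higher in shoots, at 109, 133 and 102 CPM against 0.627, 0.822 and 1.13 CPM. SULTR1;1 and SULTR1;2 were thus higher in roots and SULTR3;1 in shoots, with no overlap of libraries. SULTR3;4, of the same SULTR3 group as SULTR3;1, was higher in roots (7.80 ± 0.179 against 33.0 ± 7.43 CPM, 2.08), also without overlap. The sulfur limitation genes SDI1, LSU1 and LSU2 were higher in roots (3.97, 2.88 and 1.03; LSU1 was 3.62 without shoot replicate 2), and of the reductases APR1 and APR3 were higher in roots and APR2 in shoots. Over the sulfur list, 12 of 18 were higher in roots and 4 in shoots. With the 6 wild type libraries alone 17 members passed the filter, and 11 were higher in roots and 4 in shoots. All 25 tested genes of nitrate, phosphate and potassium transport were called, 19 of them higher in roots, 15 at 4-fold or more. NRT2.1, the high-affinity nitrate carrier, had 2.48, 2.66 and 3.17 CPM in shoots and 1237, 1331 and 1252 CPM in roots, and PHT1;1, the phosphate carrier, 0.909, 0.648 and 0.957 CPM and 496, 475 and 409 CPM. Each has a close copy in the genome, so both values are uncertain as single genes. NRT1.8, which draws nitrate back from the xylem, had 21.7, 5.18 and 17.9 CPM in shoots, of which the middle library is the lowest, and 157, 139.7 and 155 CPM in roots. The 6 higher in shoots included the guard cell potassium channels KAT1 and KAT2 and the phloem channel AKT2, and KAT2 had 0 counts in roots (at least 155-fold higher in shoots).

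Hormone genes were called in both directions. Of 178 tested in 8 lists, 82 were higher in roots and 73 in shoots, 40 and 41 at 4-fold or more.

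**Figure D3:**
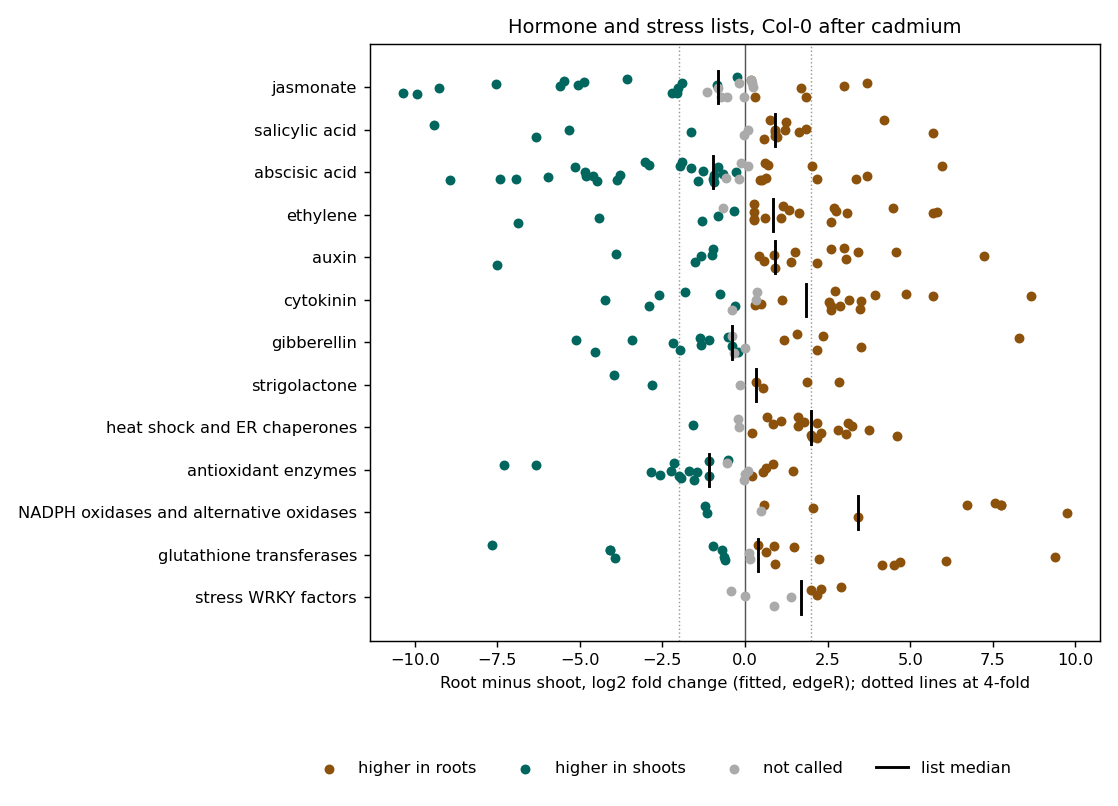
Fitted root minus shoot log2 fold changes of the tested members of 8 hormone and 5 stress lists, 1 point a gene, coloured by call at an adjusted p of 0.05, with the list median as a black bar and dotted lines at 4-fold. Jasmonate and abscisic acid genes have medians of -0.83 and -0.97, cytokinin genes 1.83 and heat shock genes 2.00.

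Of 30 jasmonate genes, 15 were higher in shoots and 6 in roots, 12 and 2 at 4-fold or more (4 in roots without root replicate 1). LOX2, the chloroplast lipoxygenase of jasmonate synthesis, had 1594, 1158 and 1557 CPM in shoots and 1.16, 1.34 and 1.91 CPM in roots (-9.93, SE 0.32, adjusted p = 6.64e-11). PDF1.2A, a defensin that marks the jasmonate and ethylene branch, had 2426, 349.7 and 2170.3 CPM in shoots and 1.01, 1.41 and 1.33 CPM in roots (-10.36, SE 0.93, adjusted p = 1.93e-06). The second shoot library was far below the other two for the defensin, yet above every root library, and PDF1.2A has near copies that make its own value uncertain. The storage proteins VSP1 and VSP2 were higher in shoots as well (-5.48 and -4.88; near copies of each other). Of 12 JAZ repressors, 4 were higher in shoots, 2 in roots and 6 were not called. JAZ9 had 249, 176 and 259 CPM in shoots and 2.68, 4.39 and 7.16 CPM in roots, while JAZ4 had 1.45, 1.36 and 1.62 CPM in shoots and 18.3, 20.0 and 18.5 CPM in roots. The receptor COI1 and the activating enzyme JAR1 were slightly higher in roots (0.17 and 0.31). The wild type column names carry 2 sets of numbered suffixes whose meaning the labels do not state. The median of the jasmonate list was -0.31 within suffixes 2 to 4 (2 shoot libraries and 1 root library). It was -2.23 within suffixes 5 to 7 (1 shoot library and 2 root libraries).

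Salicylic acid genes were divided. The pathogenesis-related genes PR1, PR2 and PR5, late targets of the hormone, and WRKY70 were higher in shoots, and 12 of 18 genes, with synthesis and signalling members among them, were higher in roots. At 4-fold or more the counts were 2 in roots (11.1%) and 3 in shoots (16.7%), against 15% and 13.8% of all genes tested. PR1 had 165, 143 and 162 CPM in shoots and 0.193, 0.329 and 0.151 CPM in roots (-9.41, SE 0.43, adjusted p = 3.82e-09). PR2, a glucanase, had 2561, 2706 and 2363 CPM in shoots and 28.0, 33.1 and 34.8 CPM in roots (-6.31, SE 0.25, adjusted p = 3.49e-10). No root library of PR1 or PR2 came near the lowest shoot library, and in the next genes the order was the opposite. ICS1, the main synthesis enzyme, had 31.5, 35.0 and 34.1 CPM in shoots and 58.1, 63.2 and 67.0 CPM in roots (0.90, SE 0.067, adjusted p = 6.9e-08). FMO1, which makes the systemic signal N-hydroxypipecolic acid, had 1.12, 0.852 and 1.22 CPM in shoots and 49.5, 51.1 and 66.0 CPM in roots (5.70, SE 0.21, adjusted p = 1.43e-10). ALD1, an earlier enzyme of that route, was also higher in roots (4.19, and 4.82 without shoot replicate 2). The receptors NPR1 and NPR4 were not called.

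Of 38 abscisic acid genes, 24 were higher in shoots and 10 in roots, 13 and 5 at 4-fold or more. All 6 dehydration and cold targets, RD29A, RD29B, RAB18, COR15A, KIN1 and KIN2, were higher in shoots. RD29A had 125, 63.1 and 125 CPM in shoots and 3.14, 2.82 and 5.20 CPM in roots, and COR15A had 46.2, 38 and 41.7 CPM and 0.0724, 0.0470 and 0.126 CPM. The synthesis genes ABA1 and NCED3 were higher in shoots (-3.86 and -3.78), and so were 6 of 7 clade A phosphatases, the negative regulators of the pathway. The receptors were divided, 5 of 9 being higher in roots and 2 in shoots. PYL6 had 0.992, 1.12 and 1.35 CPM in shoots and 65.7, 80.3 and 72.8 CPM in roots (5.96, SE 0.13, adjusted p = 5.81e-13), and PYL5 and PYL4 followed (3.37 and 2.04). CYP707A3, which breaks the hormone down, was higher in roots at 48.6, 67.4 and 169.8 CPM against 8.22, 6.03 and 8.08 CPM in shoots, with the third root library far above the others, and without that library the change was 2.97.

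Ethylene, auxin and cytokinin genes leaned to roots. All 5 ethylene receptors were higher in roots, ETR2 most, at 13.5, 12.5 and 12.3 CPM in shoots and 103, 95.8 and 128 CPM in roots (3.1, SE 0.1, adjusted p = 1.88e-11). Of 5 oxidases that make ethylene, 4 were higher in roots, among them ACO5 (1.86, 2.01 and 1.62 CPM in shoots, 116, 91.5 and 74.6 CPM in roots), and over the ethylene list the counts were 16 of 22 in roots and 5 in shoots. Among auxin genes, 13 of 19 were higher in roots and 6 in shoots. PIN2, the efflux carrier of root tip epidermis, had 0.289, 0.205 and 0.528 CPM in shoots and 63.1, 51.8 and 43.5 CPM in roots, whereas PIN4 had 158, 150.2 and 156 CPM in shoots and 9.84, 9.75 and 11.5 CPM in roots. YUC auxin synthesis genes were higher in roots in 6 of 7 cases, the exception being YUC2 (-7.50, and -8.99 without root replicate 3). Of 24 cytokinin genes, 15 were higher in roots, 12 at 4-fold or more, and 6 in shoots. CYP735A1, which makes trans-zeatin forms, had 0.0337 ± 0.0341 CPM in shoots and 16.2 ± 3.96 CPM in roots. ABCG14, which sends cytokinin to the shoot, had 12.1, 12.9 and 11.7 CPM in shoots and 149, 145 and 123 CPM in roots (3.51, SE 0.12), and the synthesis gene IPT5 was 29.3-fold higher in roots. The degrading enzyme CKX7 was higher in shoots (-4.24).

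For gibberellin the counts were 6 of 20 higher in roots and 11 in shoots. Under scaling by library totals alone they were 7 and 7, so no lean is read for this list. GAI, a growth-repressing DELLA protein, had 61.9 ± 2.01 CPM in shoots and 13.8 ± 0.879 CPM in roots, and the receptor GID1B had 14.3 ± 1.08 and 73.9 ± 5.67 CPM. Of 7 strigolactone genes tested, 4 were higher in roots, including LBO (2.85) and MAX4 (1.89), both of synthesis, and 2 in shoots, the synthesis genes D27 and MAX3 (-2.83 and -3.96).

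Stress genes leaned to roots, with 46 of 84 higher there, 25 higher in shoots and 13 not called. At 4-fold or more there were 28 and 10 of them (33.3% and 11.9%, against 15% and 13.8% of all genes tested). Heat shock and chaperone genes were higher in roots in 18 of 21 cases and in shoots in 1 (2 without root replicate 3), 11 of them at 4-fold or more in roots. With the 6 wild type libraries alone 18 members passed the filter and 13 were higher in roots, and within column suffixes 2 to 4 the counts were 11 of 18, with 6 at 4-fold or more. HSP70 had 13.7, 19.0 and 15 CPM in shoots and 97.1, 113 and 126 CPM in roots (2.82, SE 0.14, adjusted p = 1.79e-09). HSFA7A, a heat shock factor, had 3.43, 4.94 and 3.89 CPM in shoots and 59.5, 53.2 and 52.6 CPM in roots (3.74, SE 0.19, adjusted p = 2.51e-09). Many small heat shock genes counted here were low even in roots, HSP21 being at 0.410, 0.540 and 0.201 CPM. Over the 3 BIP chaperones of the endoplasmic reticulum, BIP3 changed most (1.61).

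**Figure D4:**
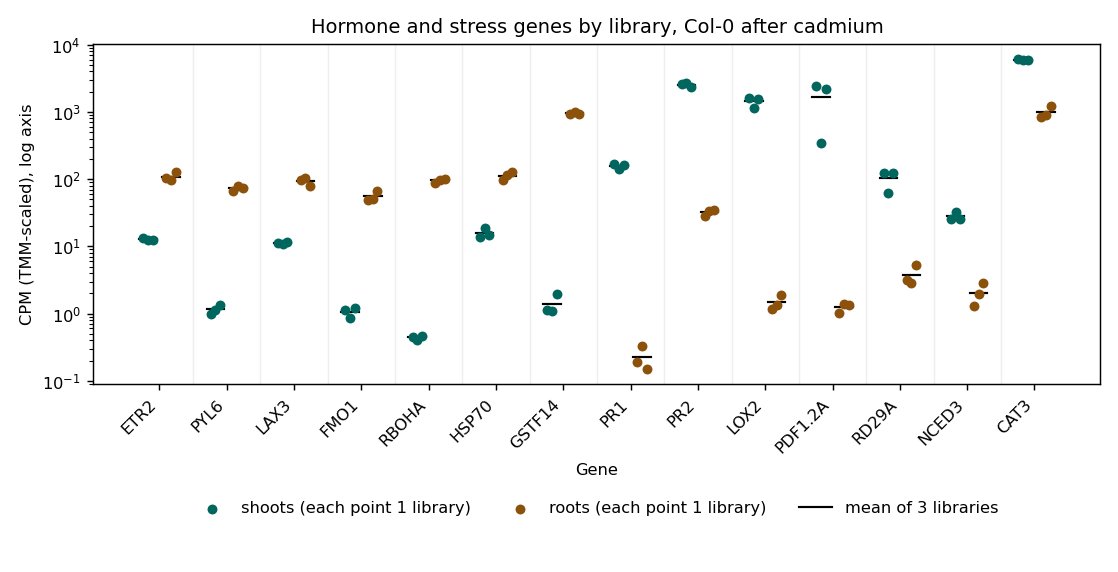
CPM after TMM scaling on a log axis for 14 hormone and stress genes, 1 point a library (3 shoot and 3 root libraries), with the mean as a bar. Root and shoot points do not overlap in any of the 14 genes, as in 81.6% of all genes tested. The second shoot library of PDF1.2A, at 349.7 CPM, lies below the other 2 shoot libraries.

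The NADPH oxidases, which make superoxide outside the cell, were higher in roots in 7 of 8 cases tested, each at 4-fold or more. RBOHA had 0.455, 0.409 and 0.462 CPM in shoots and 88.9, 96.9 and 101.2 CPM in roots (7.75, SE 0.13, adjusted p = 1.5e-13), and RBOHB had 0, 0.0341 and 0.165 CPM and 67.5, 73.8 and 54.7 CPM. RBOHD, the main oxidase of leaf immunity, was the exception and was not called, at 277, 166 and 262 CPM in shoots and 234, 292 and 449 CPM in roots. Of 3 alternative oxidases tested, which take electrons from mitochondrial respiration, AOX1A was higher in roots (0.57), and AOX1C and AOX1D were higher in shoots (-1.20 and -1.16). AOX1D lost its call without shoot replicate 1, shoot replicate 3 or root replicate 1 (adjusted p from 0.0545 to 0.0564).

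Antioxidant enzymes ran the other way, with 14 of 23 higher in shoots, 5 in roots and 4 not called. CAT3, a catalase, had 6038, 5947 and 5865 CPM in shoots and 849.6, 899.9 and 1242 CPM in roots (-2.58, SE 0.15, adjusted p = 6.36e-09). The chloroplast members APX4 and TAPX had the largest changes (-7.31 and -6.33), while cytosolic APX1 was higher in roots, at 317, 243 and 266 CPM in shoots and 518, 499 and 463 CPM in roots. The iron superoxide dismutases FSD2 and FSD3 and the copper and zinc forms CSD2 and CSD3 were higher in shoots, FSD1 was slightly higher in roots (0.20), and the mitochondrial MSD1 was not called.

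Glutathione transferases were divided 11 to 8, 2 of 21 not being called. GSTF14 had 1.12, 1.09 and 1.98 CPM in shoots and 933, 991 and 941 CPM in roots (9.40, SE 0.17, adjusted p = 2.42e-13). GSTF12, needed for anthocyanin storage, had 13.1, 6.03 and 12.8 CPM in shoots and 0.0724, 0.0470 and 0.0251 CPM in roots. Among the tau class, GSTU22, GSTU25, GSTU1, GSTU2 and GSTU24 were at least 4-fold higher in roots and GSTU5, GSTU20 and GSTU3 in shoots.

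Of 8 stress WRKY factors, 4 were higher in roots, all at 4-fold or more, and the others were not called. WRKY33, a defence regulator, had 91.5, 67.5 and 94.4 CPM in shoots and 221, 291 and 636 CPM in roots (2.18, SE 0.38, adjusted p = 0.00037). WRKY46 had 9.96, 9.51 and 11.3 CPM in shoots and 25.3, 45.8 and 159 CPM in roots (2.90, SE 0.63, adjusted p = 0.00161). In both genes the third root library was the highest, and without it the changes were 1.6 and 1.79 and the count at 4-fold or more was 1. Within column suffixes 5 to 7, which leave that library out, 4 members were higher in roots, 0 of them at 4-fold or more, and 2 were higher in shoots.

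**Figure D5:**
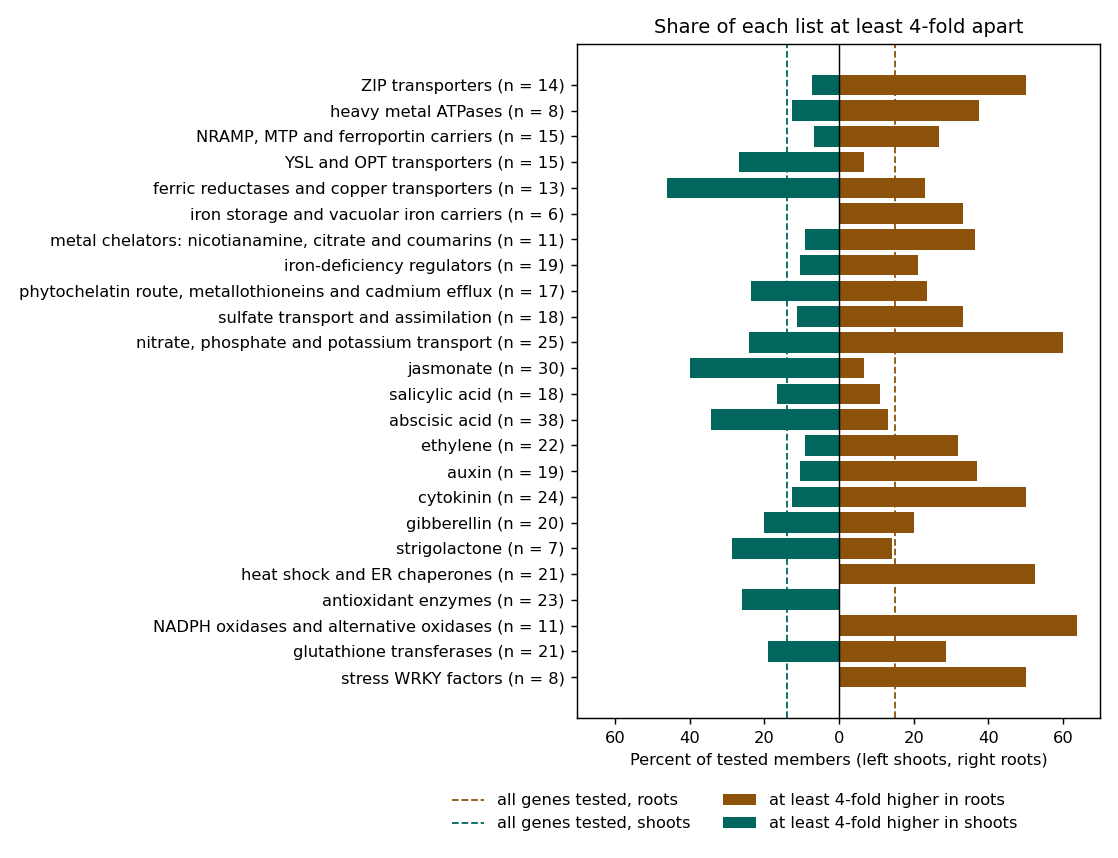
Share of the tested members of each of 24 lists at least 4-fold higher in roots (bars to the right) or shoots (bars to the left), in percent, with the number tested beside each name and dashed lines at the shares over all genes tested, 15 and 13.8. The longest root bar is that of the NADPH and alternative oxidases (63.6%) and the longest shoot bar that of the ferric reductases and copper transporters (46.2%).

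Promoter letters were also read over the whole comparison. The I-box, GATAAG, a motif known from light-regulated genes, was searched on both strands of the same 300-base windows. It was found in 517 of 2907 windows (17.78%) of genes at least 4-fold higher in shoots, in 463 of 3252 windows (14.24%) of genes at least 4-fold higher in roots, in 14.5% of all windows and in 5 of 12 leaf marker windows. The window of RCA (chr2:16573693-16573992, minus strand), whose levels open the marker comparison above, is shown with the I-box in capitals.
RCA: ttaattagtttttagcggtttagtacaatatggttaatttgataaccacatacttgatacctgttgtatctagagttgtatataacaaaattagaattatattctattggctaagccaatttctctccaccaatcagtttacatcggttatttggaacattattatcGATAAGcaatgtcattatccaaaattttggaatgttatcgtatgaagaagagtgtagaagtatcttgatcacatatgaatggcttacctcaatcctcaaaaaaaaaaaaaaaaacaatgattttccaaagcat
The W-box core TTGAC, read by WRKY factors, was found in 58.4% of root windows, 47.6% of shoot windows and 50.4% of all windows. The G-box CACGTG was found in 5.69% of root windows, 9.84% of shoot windows and 7.09% of all windows. These shares describe letters in the windows, and binding was not measured.

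The 6 reference genes frame the small differences. PP2AA3, a phosphatase subunit used as a qPCR standard, had 76.4, 73.5 and 76.2 CPM in shoots and 79.7, 77.2 and 77.8 CPM in roots and was not called, and neither were UBC21 and AT4G34270. UBQ10 was higher in shoots, at 4774, 4643 and 4484 CPM against 2952, 2747 and 2738 CPM. AP2M and AT2G28390 were called slightly higher in shoots (-0.12 and -0.28), a direction that turned under scaling by library totals, and for AP2M under reference gene scaling too. AP2M, at an adjusted p of 0.0479, lost its call with the replicate block (adjusted p = 0.0896) and with the 6 wild type libraries alone (adjusted p = 0.0604).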

How the data were processed

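The authors deposited raw counts per gene code, 36 columns, with 3 technical columns for each of 12 biological replicates. Per the submitters' processing notes, TopHat2, edgeR and TAIR10 were used, while versions, counting tool and strand setting were not given in the sources used here. The 3 technical columns were summed, with 28775 gene codes in the table, of which 28009 matched a TAIR10.1 RefSeq locus.

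Counts were scaled by TMM over all 12 libraries and tested with edgeR 4.0.16 in R 4.3.3 (glmQLFit and glmQLFTest, Benjamini-Hochberg adjustment). One fit over all 12 libraries gave the spread (8 residual degrees of freedom, biological coefficient of variation 0.115), after filterByExpr over the same 12 libraries left 21887 genes (21623 with the 6 wild type libraries alone). Genes called have an adjusted p below 0.05, and floors for genes at 0 counts use 3 counts over the 3 libraries and cover counting error only. Alternatives are given in the closing section.

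The comparison, its 27 gene lists (479 entries) and the rules were chosen with earlier results of these data known. Genes named by rule are the 6 largest changes in each direction (at least 4-fold, 50 CPM in the higher tissue, more than 3 counts in the lower, no overlap), the 6 highest levels in each direction, up to 3 members a list in each direction with at least 1 CPM in the higher tissue, every metal gene at 4-fold, 12 genes compared by genotype, reference genes and short metal-binding or IMA proteins. Not every gene chosen by these rules is mentioned in the text, and those tested are counted as named genes in the closing section. Other list members named in the text were chosen after their values were seen. Genes with near-identical copies (PDF1.2, LHCB, RBCS, GSTF, VSP, BIP, FRO4 and FRO5, FRO6 and FRO7) or overlapping neighbours are uncertain singly.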

Additional observations from a re-analysis of the deposited data

Results flagged for a closer look

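The labels allow the root minus shoot difference to be compared between wild type and opt3-2, both under cadmium, and 12 iron, zinc and defence genes were tested for it. For 10 of them the difference between the genotypes passed an adjusted p of 0.05 in edgeR's quasi-likelihood test over all genes. Of all 21887 genes tested, 10542 (48.2%) passed that test. All opt3-2 columns carry suffixes 1 to 3, and wild type columns carry 2 to 4 or 5 to 7. Genotype and suffix set therefore cannot be told apart in these differences. Each value below is wild type minus opt3-2 on the log2 scale.

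A group of 4 genes of iron uptake leaned less to roots in wild type. FRO2 differed by -2.572 (2.22 in wild type, 4.79 in opt3-2, adjusted p = 0.000134), FIT by -1.051 (3.15 and 4.2, adjusted p = 0.00662) and MYB10 by -2.492 (0.72 and 3.21, adjusted p = 3.62e-06). AT3G12900, annotated as an oxygenase, differed by -6.004 (1.53 and 7.54, adjusted p = 4.73e-05). It was low in wild type, at 0.454 ± 0.235 CPM in shoots and 1.35 ± 0.248 CPM in roots. Its wild type difference was not called by limma-voom or with technical replicate 1 alone, and was 0.87 within suffixes 5 to 7. IRT1, at -0.81 (adjusted p = 0.0645), and BHLH39, at -0.19 (adjusted p = 0.552), did not pass.

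Genes that leaned more to shoots in opt3-2 were NAS3, which differed by 4.491 (-7.10 and -11.60, adjusted p = 0.0471), YSL1 by 1.591 (-5.16 and -6.75, adjusted p = 4.97e-05) and HMA2 by 2.549 (-1.10 and -3.65, adjusted p = 6.33e-06). In roots NAS3 had 0.0703 ± 0.0935 CPM in opt3-2 and 10 counts in all in wild type. Its folds and their difference (SE 1.67) are thus set by a few reads. FER3, a ferritin, changed side, at 0.50 in wild type and -1.45 in opt3-2, a difference of 1.951 (adjusted p = 5.64e-06). OPT3, the mutated gene, differed by -1.161 (-3.06 and -1.89, adjusted p = 0.0144). PR5, a pathogenesis-related protein, also changed side and differed most, by -7.144 (-5.33 and 1.82, adjusted p = 7.80e-08).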

How the results depend on the processing

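Under 20 alternatives every count over all genes stayed within 1.5 times its value. Leaving out each replicate gave 8308 to 8407 genes higher in roots, 8042 to 8250 genes higher in shoots, 3254 to 3340 genes at least 4-fold higher in roots and 2980 to 3077 genes at least 4-fold higher in shoots. The replicate block gave 8459 and 8249 (3284 and 3011 at 4-fold), with 204 of 205 named genes keeping their call (AP2M lost it). Same-numbered roots and shoots did not deviate together over the genes tested (correlations -0.0433, 0.0418 and 0.0397). These correlations cannot settle whether same-numbered roots and shoots came from the same plants. Library totals alone gave 12232 and 5876, and reference gene scaling 10377 and 6924. Within columns of suffixes 2 to 4, 6325 and 5999 genes were called, and within suffixes 5 to 7, 7412 and 7299, from 1 root or shoot library on one side, which is assumed to vary like the others. DESeq2 gave 8932 and 8119, and limma-voom 8679 and 8543. Signs turned only for reference genes among the 205 genes: AP2M was 0.23 by library totals and 0.054 by reference scaling, AT2G28390 was 0.078 by library totals, AT4G34270 was 0.30, 0.12 and 0.0022 (library totals, reference scaling, suffixes 5 to 7), and UBC21 was -0.013 in suffixes 5 to 7. Within suffixes 2 to 4, 15 named genes lost their call, among them PDF1.2A (-10.01, adjusted p = 0.0778), PDF1.2c (0.0865), PDF1.3 (0.112), NRT1.8 (0.0966), FER3 (0.239), MAX4 (0.0661), MYB10 (0.0724), GSTU3 (0.301), AT2G28390 (0.0904) and AOX1D (0.546), and within suffixes 5 to 7, 7 did. Within suffixes 2 to 4 calls were even in both directions for the NRAMP, iron storage, strigolactone, iron regulator and cadmium-binding lists. The heavy metal ATPases were even there too, as in the main fit. The counts of list members under each setting were added after seeing the data. Genes near 0 counts in 1 tissue have folds set by a few reads.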

Other observations

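Some transcripts were counted in 1 tissue alone. Of all genes, 140 had at least 1 CPM in roots and 0 counts in all 3 shoot libraries, and 43 the reverse. Root hair regulators were among the 140: RHD6 was at least 169.5-fold and RSL4 at least 136-fold higher in roots, against a floor of 3 counts over the 3 shoot libraries. The root tip regulator WOX5 also had 0 shoot counts, but its root mean was below 1 CPM, so it is not among the 140. It was at least 19.2-fold higher in roots against the same floor.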
